A study of Mus musculus with 12 samples.

Results

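The serpins are a family of protease inhibitors, and 63 genes of the family were found by symbol, as Serpin followed by a clade letter from a to i and a number, among the 34547 mouse genes with counts. Another 5 symbols with a pseudogene suffix were left out. The genes were measured by RNA-Seq of polyA RNA from sorted thymic epithelial cells (TEC), as cortical TEC (cTEC) and medullary TEC (mTEC) of WT and Aβ0/0 mice, with 3 libraries in each of the 4 groups. WT mice were C57/BL6 from a commercial breeder, and Aβ0/0 mice, which lack MHC class II because H2-Ab1 is disrupted in all of their cells, came from another source, so that source and genotype cannot be told apart. Every library was a pool of 5 to 10 mice of 4 to 6 weeks of age. From Epcam+CD45- cells, those with Ly51 and without UEA1 staining were taken as cTEC and those with UEA1 and without Ly51 as mTEC, and in each replicate fewer cells were sorted for an Aβ0/0 subset than for the same WT subset, so that cell number and genotype cannot be told apart. WT mTEC had the most cells in each replicate.

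A serpin presents a flexible reactive centre loop to a protease, and after cleavage of the loop the protease is trapped in a covalent complex. Some members have no inhibitory role and carry hormones or fold collagen. Clade A members are mostly secreted proteins known from liver and plasma, while clade B members act inside cells, either against granule proteases of leukocytes or in squamous epithelium. Mice have many more clade A and clade B genes than humans, in tandem clusters. In the thymus, mTEC are known to express genes of many peripheral tissues, partly under Aire, and several serpins are genes of such tissues.

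Of the 63 members, 24 lie on chromosome 12, between positions 103614786 and 104414329 (GRCm38), and 15 lie on chromosome 13, between 32842092 and 34002794. The chromosome 13 cluster holds all 15 clade B inhibitors of leukocyte granule proteases and their copies. Chromosome 1 holds the 12 clade B serpins listed here under squamous epithelium, together with Serpinc1 and Serpine2. The list takes in every clade B member of this chromosome, whether or not it is known from squamous epithelium. The other 10 members lie on 8 chromosomes. In the annotation, 61 members are protein coding, Serpina3h is an unprocessed pseudogene that is transcribed, and Serpinb10 is a polymorphic pseudogene.

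The part of the loop that meets the protease differs between close copies, and the stretch is shown for 2 sets of copies whose levels differed in TEC. Each stretch is 66 coding bases of a GENCODE M21 transcript (GRCm38), 5′ to 3′ in the sense of the gene, with the 15 bases of the hinge, by which the stretch was found, in capitals. A hinge was found once in 40 of the 62 members with a coding frame. The Serpinb6 copies, of which Serpinb6a is found in both TEC subsets, Serpinb6c is higher in cTEC and Serpinb6e is counted in WT mTEC, read as follows.
Serpinb6a, chr13:33918122-33918187, minus strand: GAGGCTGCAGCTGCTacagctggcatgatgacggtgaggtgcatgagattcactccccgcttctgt
Serpinb6b, chr13:32978213-32978278, plus strand: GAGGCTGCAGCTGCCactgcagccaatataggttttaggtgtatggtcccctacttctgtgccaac
Serpinb6c, chr13:33880009-33880074, minus strand: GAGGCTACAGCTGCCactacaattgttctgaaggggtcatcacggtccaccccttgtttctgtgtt
Serpinb6e, chr13:33832537-33832602, minus strand: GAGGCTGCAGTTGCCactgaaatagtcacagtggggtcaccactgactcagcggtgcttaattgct
Past the hinge, position by position and without gaps, Serpinb6a shared 22 of 51 bases (43.1%) with Serpinb6b and 18 (35.3%) with Serpinb6c. Serpinb6c and Serpinb6e shared 28 of the 51 (54.9%). Over the length of the transcripts, Serpinb6a and Serpinb6c were 86.5% identical where they aligned, so that reads outside the loop can be hard to assign between them.

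The Serpina3 copies, relatives of alpha-1-antichymotrypsin, read as follows for 4 members that were measured in both subsets.
Serpina3f, chr12:104220251-104220316, plus strand: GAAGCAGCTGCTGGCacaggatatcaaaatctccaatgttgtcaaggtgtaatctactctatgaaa
Serpina3g, chr12:104241078-104241143, plus strand: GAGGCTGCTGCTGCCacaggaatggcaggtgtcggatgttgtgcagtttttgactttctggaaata
Serpina3i, chr12:104268486-104268551, plus strand: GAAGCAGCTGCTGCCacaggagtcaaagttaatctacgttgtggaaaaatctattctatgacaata
Serpina3n, chr12:104413454-104413519, plus strand: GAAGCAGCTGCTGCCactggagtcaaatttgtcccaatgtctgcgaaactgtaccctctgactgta
Past the hinge, Serpina3i and Serpina3n shared 32 of 51 bases (62.7%), and Serpina3f and Serpina3n shared 18 (35.3%). The transcripts of Serpina3h and Serpina3f were 93.2% identical where they aligned, and those of Serpina1a and Serpina1c 98.6%, so that counts of such copies are uncertain as single genes.

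Libraries held between 21710319 and 36139815 estimated counts. Levels are given in TPM, the length-corrected share of a library's transcripts, which can be compared between genes, and differences in log2 fold change of counts with the standard error (SE) and the Benjamini-Hochberg adjusted p of edgeR's quasi-likelihood test over all genes. H2-Ab1 RNA was lower in every Aβ0/0 library, at 1900 to 3853 CPM (counts scaled to library size), than in every WT library of its subset, at 6507 to 11199 CPM, though its log2 difference passed the test in mTEC (1.81, adjusted p = 0.0352) and not in cTEC (1.47, adjusted p = 0.695). The 8 cTEC markers summed to 10692 to 26715 CPM in cTEC libraries and 1248 to 3030 CPM in mTEC libraries, and the 8 mTEC markers to 1614 to 2115 CPM and 4050 to 4979 CPM, so that the libraries bore their labels. Fibroblast markers also differed between the subsets, with 7 genes summing to 2317 to 3149 CPM in cTEC libraries and 202 to 469 CPM in mTEC libraries, most of it Dcn in cTEC.

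More serpins were detected in WT mTEC than in the other groups, while the ranges of the family's summed level overlapped. With more than 3 counts as detection, 52, 54 and 56 members were detected in the WT mTEC libraries, 29, 35 and 36 in Aβ0/0 mTEC, 29, 30 and 30 in WT cTEC, and 24 in each Aβ0/0 cTEC library. After all libraries were thinned to 21605226 counts, the numbers were 52 to 56, 29 to 35, 29 to 30 and 23 to 24. No Aβ0/0 mTEC library reached the lowest WT mTEC library. Over all genes, 20440 to 21401 were over 3 counts in WT mTEC after thinning, 15958 to 17949 in Aβ0/0 mTEC, 15926 to 17563 in WT cTEC and 14933 to 16874 in Aβ0/0 cTEC, so that more genes of any kind were detected in WT mTEC, the group with the most sorted cells. These counts are given as a description, with no test.

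**Figure D1:**
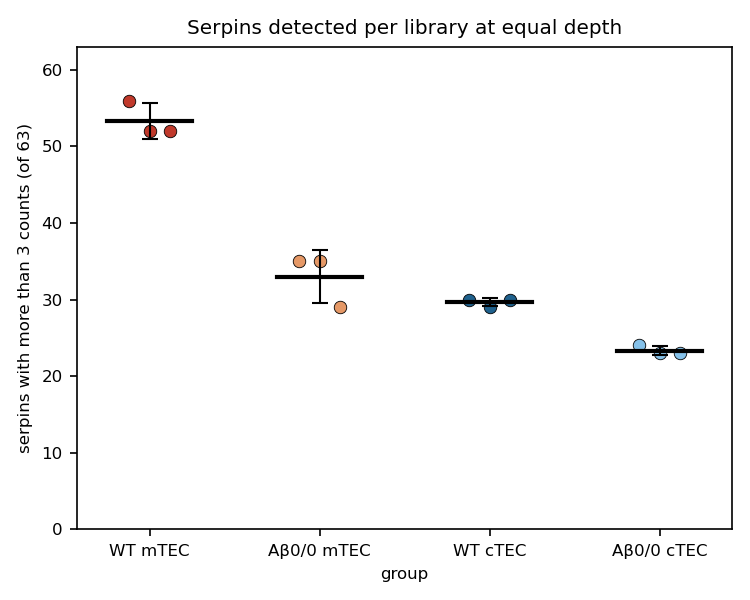
Number of the 63 serpins with more than 3 counts (y axis) in each library after thinning to equal depth (points), with the mean and SD of each group (n = 3, bars) on the x axis. WT mTEC libraries lie at 52 to 56, above Aβ0/0 mTEC at 29 to 35, WT cTEC at 29 to 30 and Aβ0/0 cTEC at 23 to 24.

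The summed level of the family was 1707 to 1832 TPM in WT mTEC, 1629 to 2141 in Aβ0/0 mTEC, 1201 to 2093 in WT cTEC and 1439 to 1965 in Aβ0/0 cTEC. A few members carried most of it, since the 5 highest in a library made up 64.2% to 77.2% of the sum. Members over 3 counts in every library of all 4 groups numbered 20, and 24 members passed that level in at least 1 mTEC library and in no cTEC library. The reverse held for 1 member, Serpina1f, with 8 counts in 1 Aβ0/0 cTEC library. Some of the 24 passed in 1 library only, such as Serpina1d with 4 counts in WT mTEC replicate 2. The same count was not made over all genes, of which more were detected in WT mTEC as given above. These numbers are therefore not a trait of the family. Serpinb6d and Serpini2, the pancreas serpin pancpin, had no count in any library.

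**Figure D2:**
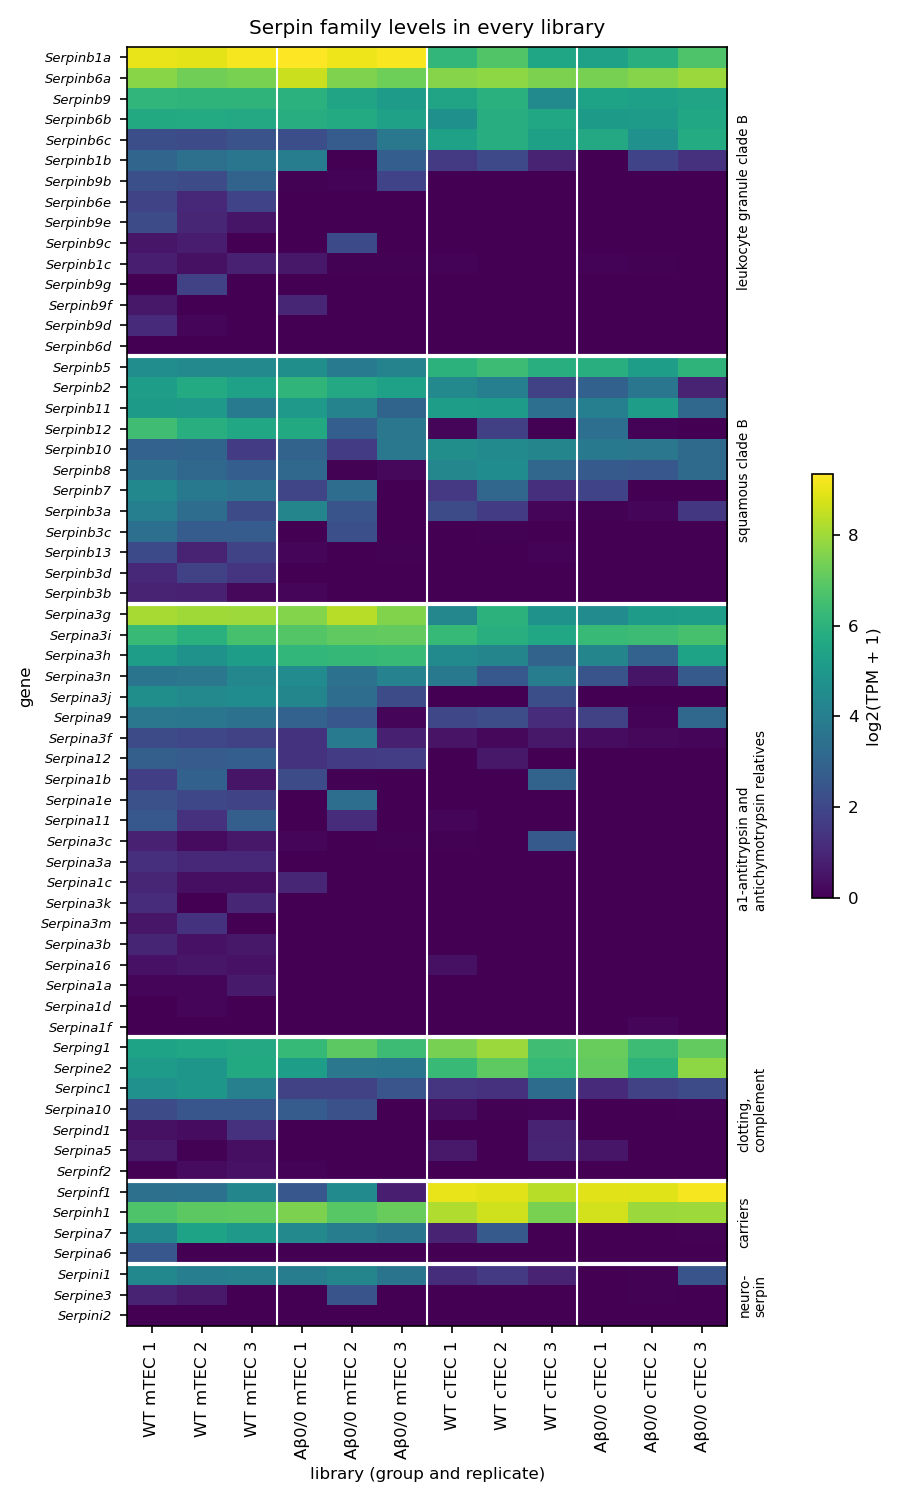
Heat map of log2(TPM + 1) (colour) for 62 serpins (rows, grouped by role and ordered by mean level within a group) in the 12 libraries (columns). Serpinb1a is brightest in mTEC and Serpinf1 in cTEC, and many clade A and clade B rows are lit in WT mTEC libraries and dark in the others.

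The leading serpin was not the same in the subsets. In cTEC it was Serpinf1, encoding PEDF, a secreted anti-angiogenic factor with no inhibitory role, at 438 ± 103 TPM in WT and 515 ± 65.9 TPM in Aβ0/0 (SD, n = 3, here and below). Next in WT cTEC came Serpinh1 at 291 ± 115 TPM, which encodes the collagen chaperone HSP47, Serpinb6a at 194 ± 17.6 TPM and Serping1 at 166 ± 77.7 TPM, and the spreads of these neighbours overlap. In mTEC it was Serpinb1a, an inhibitor of neutrophil elastase, cathepsin G and proteinase-3, at 533 ± 52.2 TPM in WT and 595 ± 49.1 TPM in Aβ0/0. Serpina3g, also known as Spi2A, an inhibitor of cathepsins in the cytosol, followed in WT mTEC at 259 ± 14.0 TPM, clear of Serpinb6a at 177 ± 21.5 TPM.

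The comparison of mTEC with cTEC in WT asks which serpins mark either subset. Of 47 members tested, 25 were higher in mTEC and 7 were higher in cTEC, while 18.0% and 8.81% of all 18667 genes tested passed in these directions and 26.8% in either. The median log2 fold change of the members, mTEC over cTEC, was 2.32, against 0.06 over all genes tested. Of the 25, 11 were over 3 counts in no WT cTEC library, so that they passed the filter on low counts through WT mTEC and had to differ. The same held for 1441 of the 3352 genes called higher in WT mTEC. These 11 members also enter the median. Over the 36 members and 17212 genes with a library over 3 counts in both subsets, the medians were 0.95 and -0.03, 14 members (38.9%) and 11.1% of the genes were called higher in WT mTEC, and 7 members (19.4%) and 9.52% of the genes were called higher in WT cTEC. The groups of 3 libraries did not overlap for 29 members that were higher in mTEC and 7 that were higher in cTEC, while 30.1% and 17.2% of all genes tested did not overlap in these directions and 47.2% in either. Of the 29, 18 were among the 36 members, against 24.2% of the 17212 genes. The fit with the replicate number as a block, taken to mark 1 sorting, called 25 members, of which 24 were among the 32. Without WT mTEC replicate 1 or WT mTEC replicate 2, 21 members were called. Of the 32, 20 were called whichever library was left out. The other 12 were not. Serpina3f, Serpina7, Serpinb10, Serpinb1b, Serpinb7 and Serpinb9 lost the call without WT cTEC replicate 1 or any 1 WT mTEC library, and Serpina12, Serpina3h and Serpinh1 without any 1 WT mTEC library. Serpinb1c lost it without WT cTEC replicate 2 or any 1 WT mTEC library, Serpine2 without WT mTEC replicate 1 or 2, and Serpinb2 without WT mTEC replicate 2. With all 12 libraries in 1 fit, 18 of the 32 were called, and Serpina10, Serpina11, Serpina1e, Serpina9, Serpinb3c and Serpini1, which no left-out library took away, were among the 14 that were not.

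**Figure D3:**
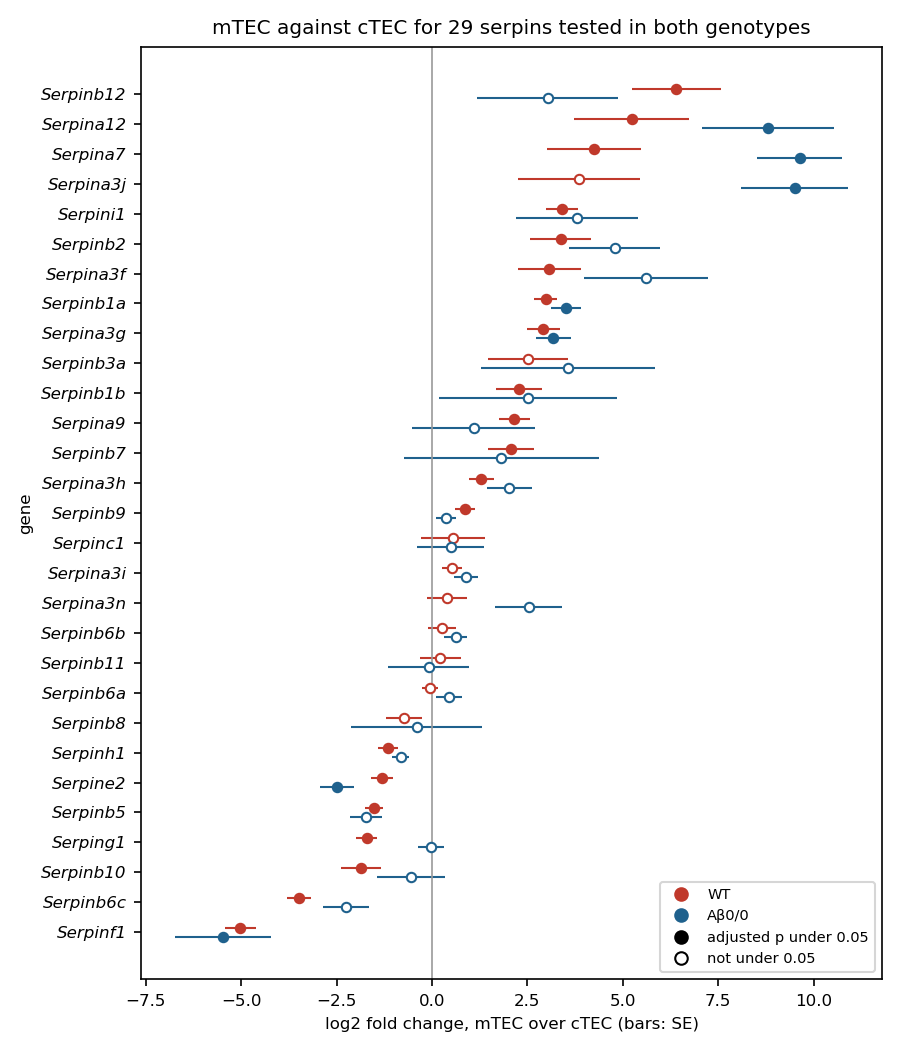
Log2 fold change of mTEC over cTEC (x axis, bars are SE) for 29 serpins tested in both genotypes, in WT (red) and Aβ0/0 (blue), with filled points where the adjusted p is under 0.05. Serpinf1 lies farthest to the left in both genotypes, and Serpinb1a and Serpina3g are filled on the right in both.

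Among the inhibitors of leukocyte granule proteases, 7 of 10 tested were higher in WT mTEC and 1, Serpinb6c, was higher in WT cTEC. Over all genes tested these shares were 18.0% and 8.81%. Of the 7, Serpinb9b, Serpinb6e, Serpinb9e and Serpinb1c were over 3 counts in no WT cTEC library. They passed the filter through WT mTEC and had to differ. Markers of leukocytes differed between the subsets too, in both directions. Of those tested, 2 of 6 granulocyte markers and 4 of 8 markers of dendritic cells, macrophages and B cells were higher in WT mTEC and none was lower, while 5 of 7 thymocyte markers were higher in WT cTEC and none was lower. Among those over 3 counts in both WT subsets, the numbers were 1 of 5, 3 of 7 and 5 of 7. Of such genes, 11.1% were called toward mTEC and 9.52% toward cTEC. The 7 granulocyte markers summed to 545 to 699 CPM in WT mTEC and 14.2 to 411 CPM in WT cTEC, with Ngp at 0 in WT cTEC. The 8 others summed to 16278 to 20938 CPM in WT mTEC, most of it Cd74, which TEC express too. In WT cTEC these 8 summed to 8696 to 14330 CPM, with Itgax at 0. The 7 thymocyte markers summed to 47.1 to 119 CPM in WT mTEC and 224 to 360 CPM in WT cTEC. Their part in the serpin values was not tested. Serpinb1a stood at 513, 495 and 593 TPM in WT mTEC and at 70.9, 109 and 43.8 TPM in WT cTEC, and all mTEC libraries were above all cTEC libraries. Its log2 fold change was 2.98 (SE 0.30, adjusted p = 0.000704). Serpinb9, which inhibits granzyme B, was at 69.2, 65.2 and 65.4 TPM in WT mTEC and 42.1, 59.1 and 20.4 TPM in WT cTEC, which is a narrow gap between the groups (log2 fold change 0.87, SE 0.27, adjusted p = 0.0459). Its adjusted p was 0.0660 without the filter on low counts and up to 0.147 without 1 library. The copies of these genes were low. Serpinb9b was counted in WT mTEC at 155, 273 and 435 and had no count in WT cTEC, which makes it at least 85.2-fold higher in WT mTEC when each cTEC library is set to 3 counts. By the same measure Serpinb6e was at least 21.1-fold and Serpinb9e at least 20.2-fold higher, each with no count in any WT cTEC library. Serpinb1c was at least 4.99-fold higher, and its adjusted p rose from 0.0146 to 0.0683 with the replicate number as a block.

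Of the Serpinb6 copies measured in both subsets, 1 of 3 passed the test. Serpinb6c was at 3.74, 3.35 and 4.26 TPM in WT mTEC and at 39.4, 55.2 and 38.3 TPM in WT cTEC, with no overlap (log2 fold change -3.48, SE 0.31, adjusted p = 0.000458). Serpinb6a, an inhibitor of cathepsin G, was at 201, 159 and 172 TPM in WT mTEC and 195, 212 and 176 TPM in WT cTEC, so that the groups overlap (log2 fold change -0.06, SE 0.21, adjusted p = 0.881). Serpinb6b, an inhibitor of granzyme A, was at 48.6 to 51.6 TPM and 24.4 to 54.7 TPM (log2 fold change 0.27, SE 0.36, adjusted p = 0.638). Serpinb6a shares 762 exon bases with Nqo2 on the opposite strand and 241 with Ripk1, and the library kit does not keep the strand, so that reads there cannot be told apart.

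Of the clade B serpins listed under squamous epithelium, 6 of 11 tested were higher in WT mTEC and 2 were higher in WT cTEC. Over all genes tested these shares were 18.0% and 8.81%. Of the 6, Serpinb3c, Serpinb13 and Serpinb3d were over 3 counts in no WT cTEC library. They passed the filter through WT mTEC and had to differ. Serpinb12, found in surface and glandular epithelia, was at 86.8, 56.0 and 47.2 TPM in WT mTEC and at 0.0825, 2.37 and 0.0263 TPM in WT cTEC (log2 fold change 6.40, SE 1.17, adjusted p = 0.00641). No WT cTEC library came near a WT mTEC library. Serpinb2, the plasminogen activator inhibitor PAI-2, was at 35.5, 51.3 and 39.8 TPM against 20.1, 15.2 and 2.60 TPM, with WT cTEC replicate 3 lowest (log2 fold change 3.37, SE 0.81, adjusted p = 0.0169). Of the Serpinb2 level in WT cTEC, 15.2, 8.77 and 2.58 TPM came from a 347-base transcript annotated as nonsense-mediated decay. That transcript was at 0.163 to 0.721 TPM in WT mTEC. Serpinb2 shares 291 exon bases with Serpinb10 on the same strand. Serpinb3c, a squamous cell carcinoma antigen relative, was at least 74.6-fold higher in WT mTEC, Serpinb13, known as headpin, at least 22.2-fold and Serpinb3d at least 14.1-fold, and none of the 3 had more than 2 counts in a WT cTEC library.

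Of the clade B serpins of chromosome 1, those higher in WT cTEC were Serpinb5 and Serpinb10. Serpinb5, known as maspin, is a cytoplasmic serpin of epithelial cells, and it was at 62.0, 84.1 and 56.1 TPM in WT cTEC and at 22.9, 20.2 and 20.2 TPM in WT mTEC (log2 fold change -1.52, SE 0.23, adjusted p = 0.00311). Serpinb10 was at 23.1, 20.3 and 18.1 TPM in WT cTEC and 6.61, 6.96 and 2.18 TPM in WT mTEC (log2 fold change -1.86, SE 0.52, adjusted p = 0.0325). With the replicate number as a block its adjusted p was 0.0599. For both genes no WT mTEC library reached a WT cTEC library. Serpinb7, a protease inhibitor of skin, was higher in WT mTEC at 10.8 to 19.7 TPM against 1.37 to 7.46 TPM (log2 fold change 2.07, SE 0.61, adjusted p = 0.0398). Serpinb11 overlapped, at 13.0 to 33.3 TPM and 9.68 to 36.5 TPM (log2 fold change 0.22, SE 0.54, adjusted p = 0.806).

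Of the alpha-1-antitrypsin and antichymotrypsin relatives, 9 of 15 tested were higher in WT mTEC and none was lower. Over all genes tested these shares were 18.0% and 8.81%. Of the 9, Serpina11, Serpina1e, Serpina3a and Serpina3b were over 3 counts in no WT cTEC library. They passed the filter through WT mTEC and had to differ. Serpina3g was at 275, 253 and 249 TPM in WT mTEC and 19.1, 63.1 and 26.0 TPM in WT cTEC, with no overlap (log2 fold change 2.92, SE 0.43, adjusted p = 0.00307). Serpina3i, its neighbour on chromosome 12, was at 59.4 to 96.4 TPM and 46.3 to 74.9 TPM, and these ranges overlap (log2 fold change 0.52, SE 0.27, adjusted p = 0.204). Serpina3n, an acute phase antichymotrypsin, was at 10.9 to 19.0 TPM and 4.88 to 14.0 TPM (log2 fold change 0.39, SE 0.53, adjusted p = 0.642). Of these 3 copies, Serpina3g alone passed the test. Serpina12, the adipokine vaspin, was at 6.07, 5.47 and 5.85 TPM in WT mTEC and at 0, 0.532 and 0 TPM in WT cTEC (log2 fold change 5.23, SE 1.50, adjusted p = 0.0358). Serpina9, known from germinal centre B cells, was at 10.5 to 11.9 TPM and 1.29 to 3.61 TPM (log2 fold change 2.16, SE 0.39, adjusted p = 0.00626). The liver genes Serpina11 and Serpina1e were at least 39.6-fold and at least 32.3-fold higher in WT mTEC, and the low members Serpina3a and Serpina3b at least 11.3-fold and at least 8.29-fold. The remaining pair called, Serpina3f and Serpina3h, were 3.07 (SE 0.82, adjusted p = 0.0265) and 1.30 (SE 0.33, adjusted p = 0.0228) higher on the log2 scale, and with the replicate number as a block their adjusted p were 0.0727 and 0.0517. With that block the adjusted p of Serpina3a, Serpina3b and Serpinb3d were 0.0546, 0.0621 and 0.0514, and that of Serpinb1b, which was 2.28 higher on the log2 scale (SE 0.60, adjusted p = 0.0242), was 0.0737.

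Several clade A members had counts in 1 WT cTEC library, replicate 3. Serpina1b had 0, 0 and 221 counts in WT cTEC replicates 1, 2 and 3, Serpina3c had 1, 0 and 280, and Serpina3j had 0, 1 and 188. WT mTEC had 49, 237 and 15 counts of Serpina1b and 29, 12 and 29 of Serpina3c, so that this cTEC library lay near or above them. Neither gene passed the test between WT subsets, with adjusted p of 0.970 and 0.478. Without WT cTEC replicate 3, 41 members were called in place of 32, and Serpina1b, Serpina3c, Serpina3j, Serpinc1 and Serpind1 were among those gained.

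Carriers and the collagen chaperone parted between the subsets. Serpinf1 was at 513, 480 and 320 TPM in WT cTEC and at 9.77, 10.2 and 18.3 TPM in WT mTEC, the widest difference in favour of cTEC in the family (log2 fold change -5.02, SE 0.41, adjusted p = 0.000353). Serpinh1 was at 295, 404 and 173 TPM in WT cTEC and 106, 125 and 129 TPM in WT mTEC (log2 fold change -1.15, SE 0.27, adjusted p = 0.0147). Serpina7, the thyroxine-binding globulin made in liver, was higher in WT mTEC, at 19.6, 41.5 and 31.6 TPM against 0.867, 5.22 and 0 TPM (log2 fold change 4.25, SE 1.23, adjusted p = 0.0366). Serpina6, the cortisol carrier, had 112 counts in WT mTEC replicate 1 and none in the other 11 libraries.

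Of the 7 inhibitors of clotting, fibrinolysis and complement tested, 2 were higher in WT cTEC and 1 was higher in WT mTEC. Over all genes tested these shares were 8.81% and 18.0%. Serping1, the inhibitor of C1r and C1s, was at 169, 242 and 86.8 TPM in WT cTEC and 41.8, 45.4 and 48.4 TPM in WT mTEC (log2 fold change -1.70, SE 0.27, adjusted p = 0.00409). Serpine2, protease nexin-1, was at 77.7, 129 and 75.9 TPM in WT cTEC and 34.9, 29.4 and 49.5 TPM in WT mTEC (log2 fold change -1.30, SE 0.29, adjusted p = 0.0125). Serpina10, the protein Z-dependent inhibitor, was at 3.54, 4.58 and 4.57 TPM in WT mTEC and at most 0.286 TPM in WT cTEC (log2 fold change 4.32, SE 0.90, adjusted p = 0.00941). Serpinf1, Serpinh1, Serping1 and Serpine2 are also known from fibroblasts, whose markers were higher in cTEC libraries as given above. The part of fibroblast RNA in these values was not tested. Serpini1, neuroserpin, an inhibitor of tissue plasminogen activator, was at 19.3, 14.9 and 15.5 TPM in WT mTEC and 1.34, 2.03 and 0.888 TPM in WT cTEC (log2 fold change 3.40, SE 0.43, adjusted p = 0.00159).

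**Figure D4:**
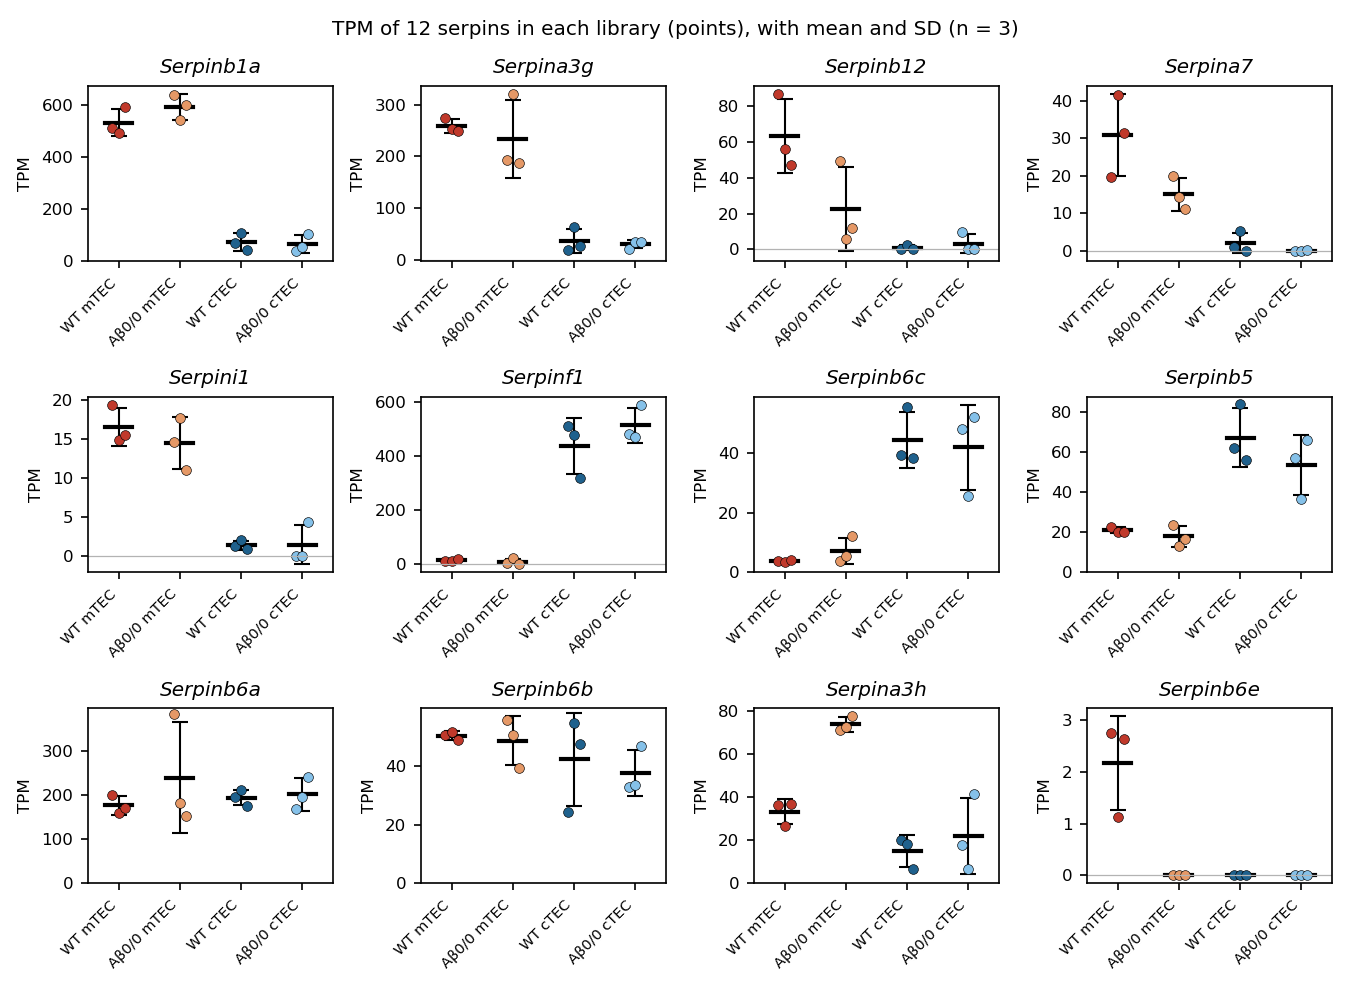
TPM (y axis) of 12 serpins in each library (points) of WT mTEC, Aβ0/0 mTEC, WT cTEC and Aβ0/0 cTEC (x axis), with the mean and SD (n = 3, bars). Serpinf1 reaches 320 to 590 TPM in cTEC and at most 21.3 TPM in mTEC, Serpinb1a is highest in mTEC of both genotypes, and Serpinb6e is at 0 outside WT mTEC.

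Serpinc1, encoding antithrombin, depends on which transcripts are summed. Its longest transcript shares 2942 exon bases with Zbtb37 on the opposite strand. The other 7 transcripts had 330, 652 and 300 counts in WT mTEC and 61, 39 and 64 in Aβ0/0 mTEC, and 33, 32 and 67 counts in WT cTEC. No Aβ0/0 mTEC library reached the lowest WT mTEC library on these transcripts. With all transcripts, Serpinc1 did not pass between WT mTEC and WT cTEC (log2 fold change 0.56, SE 0.84, adjusted p = 0.681). Without the overlapping transcript, a choice made after seeing the data, it did (log2 fold change 3.11, SE 0.60, adjusted p = 0.00731). On that sum, WT and Aβ0/0 mTEC differed by a log2 fold change of 2.78 (SE 0.63) with an adjusted p of 0.0507, which misses the threshold.

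Other members were low. Serpina1a, Serpina1d, Serpina3k, Serpina3m, Serpinb9c, Serpinb9d, Serpinb9f, Serpinb9g, Serpine3 and Serpinf2 were over 3 counts in at most 2 of the 3 WT mTEC libraries, and none of them was over 3 counts in a cTEC library. Serpina1c had 21, 11 and 10 counts and Serpinb3b 23, 35 and 6 counts in WT mTEC, and neither had a count in cTEC. Serpinb3a was at 15.4, 8.96 and 3.44 TPM in WT mTEC and 3.48, 2.10 and 0.0796 TPM in WT cTEC (log2 fold change 2.51, SE 1.05, adjusted p = 0.124), and with the replicate number as a block its adjusted p was 0.0493. Serpina5, the protein C inhibitor, had at most 50 counts in any library and was spread over both subsets.

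The same comparison in Aβ0/0 mice asks whether the subsets differ without MHC class II. Of 30 members tested, 5 were higher in Aβ0/0 mTEC and 2 were higher in Aβ0/0 cTEC, and 3.45% and 2.15% of all 15687 genes tested passed in these directions and 5.6% in either. The median log2 fold change of the members was 1.45, against 0.03 over all genes tested. Of the 5, Serpina7, Serpina3j and Serpina12 were over 3 counts in no Aβ0/0 cTEC library, so that these 3 passed the filter through Aβ0/0 mTEC and had to differ, as did 144 of the 541 genes called higher in Aβ0/0 mTEC. Over the 26 members and 15457 genes with a library over 3 counts in both subsets, the medians were 0.76 and 0.02. Of these, 2 members (7.69%) and 2.57% of the genes were called higher in Aβ0/0 mTEC. In Aβ0/0 cTEC, 2 members (7.69%) and 1.95% of the genes were called higher. Of the 7 members called, 6 were called in WT too, and these comparisons share no library. Among the 6 are Serpina7 and Serpina12, which had to differ in Aβ0/0, and 68.1% of the members tested in WT were called there. The number of all genes called in both was not counted. With the replicate number as a block, 4 members were called in Aβ0/0. DESeq2 called 16.

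Serpinb1a was at 641, 543 and 600 TPM in Aβ0/0 mTEC and 39.3, 57.0 and 106 TPM in Aβ0/0 cTEC (log2 fold change 3.51, SE 0.39, adjusted p = 0.00472). Serpina3g was at 193, 320 and 187 TPM against 21.4, 34.2 and 35.4 TPM (log2 fold change 3.18, SE 0.46, adjusted p = 0.0106). Neither gene had overlapping groups, and both were also called with the replicate number as a block. Serpina7 had 706, 911 and 553 counts in Aβ0/0 mTEC and 0, 1 and 2 in Aβ0/0 cTEC, which is at least 292-fold higher in mTEC. Serpina3j had 699, 529 and 162 counts against 0, 1 and 1, at least 188-fold higher. Serpina12 was at least 67.3-fold higher, and it lost the call without any 1 of the 6 libraries and with the replicate number as a block.

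Serpinf1 was at 483, 470 and 590 TPM in Aβ0/0 cTEC and at 4.72, 21.3 and 0.724 TPM in Aβ0/0 mTEC, which vary widely among themselves (log2 fold change -5.47, SE 1.26, adjusted p = 0.048). Serpine2 was at 136, 64.5 and 215 TPM in Aβ0/0 cTEC and 36.3, 12.1 and 11.6 TPM in Aβ0/0 mTEC (log2 fold change -2.48, SE 0.44, adjusted p = 0.0212). With the replicate number as a block their adjusted p were 0.0653 and 0.0564. Serpinf1 lost the call without any 1 Aβ0/0 cTEC library or Aβ0/0 mTEC replicate 1, and Serpine2 without Aβ0/0 cTEC replicate 1 or 3 or Aβ0/0 mTEC replicate 2 or 3. Serpinb6c, Serpinb5 and Serpinh1 also lay higher in each Aβ0/0 cTEC library than in each Aβ0/0 mTEC library, with adjusted p of 0.0824, 0.0525 and 0.0858. Serping1 overlapped, at 143, 83.7 and 133 TPM in Aβ0/0 cTEC and 75.8, 125 and 83.2 TPM in Aβ0/0 mTEC (log2 fold change -0.03, SE 0.34, adjusted p = 0.976). Of the 32 members called in WT, 12 had too few counts to be tested in Aβ0/0.

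The comparison of WT with Aβ0/0 mTEC asks which serpins change with MHC class II. Of 48 members tested, 5 were higher in WT and 1 was higher in Aβ0/0, while 5.32% and 0.338% of all 18636 genes tested passed in these directions and 5.66% in either. The median log2 fold change of the members, WT over Aβ0/0, was 0.61, against 0.00 over all genes tested, and the groups did not overlap for 19 members higher in WT and 3 higher in Aβ0/0, while 18.7% and 7.67% of all genes tested did not overlap in these directions and 26.4% in either. Of the 48, 8 were over 3 counts in no Aβ0/0 mTEC library and entered through WT mTEC. Over the other 40 members and the 17586 genes with a library over 3 counts in both groups, the medians were 0.32 and -0.04, 0 members and 0.597% of the genes were called higher in WT, and 11 members (27.5%) and 13.9% of the genes lay higher in WT without overlap. All 6 had an adjusted p of 0.0352, and 0 were called without the filter on low counts, with a filter at a mean of 10 counts, with all 12 libraries in 1 fit, with the replicate number as a block, and without any 1 library other than Aβ0/0 mTEC replicate 1, whose removal gave 11. DESeq2 called 10, losing Serpina16 and gaining Serpina12, Serpinb13, Serpinb9e, Serpind1 and Serping1.

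The 5 members higher in WT had no count in any Aβ0/0 mTEC library. They passed the filter on low counts through WT alone and so had to differ, and the count of 5 supports nothing on the family. Of the 991 genes called higher in WT mTEC, 886 were likewise over 3 counts in no Aβ0/0 mTEC library. Serpinb6e had 64, 44 and 96 counts in WT mTEC and was at least 21.1-fold higher, and Serpinb3d, with 19, 77 and 50 counts, at least 14.0-fold. Serpina3a had 32, 36 and 42 counts and was at least 11.2-fold higher, and Serpina3b, with 31, 21 and 26 counts, at least 8.27-fold. Serpina16, with 8, 16 and 13 counts, was at least 3.68-fold higher and had 6 counts in WT cTEC replicate 1. All 5 genes are low even in WT mTEC, at 2.76 TPM or less in any library. The first 4 had no count in any cTEC library either.

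The member higher in Aβ0/0 mTEC was Serpina3h. It was at 71.0, 72.7 and 77.8 TPM in Aβ0/0 mTEC and at 36.5, 26.5 and 36.8 TPM in WT mTEC, with no overlap (log2 fold change -1.28, SE 0.24, adjusted p = 0.0352). The summed Serpina3 copies were not called (log2 fold change -0.30, SE 0.24, adjusted p = 0.691). In that sum Serpina3g, at a mean of 272 CPM in WT mTEC and 280 CPM in Aβ0/0 mTEC, outweighs Serpina3h, at 29.4 and 70.7 CPM. The sum therefore cannot decide on Serpina3h alone. Serpina3h is annotated as a pseudogene and is 93.2% identical to Serpina3f where they align, and Serpina3f was at 2.52 to 3.50 TPM in WT mTEC and 0.753 to 13.9 TPM in Aβ0/0 mTEC. Serpina3i was at 76.5, 59.4 and 96.4 TPM in WT mTEC and 114, 133 and 136 TPM in Aβ0/0 mTEC (log2 fold change -0.80, SE 0.28, adjusted p = 0.214). Serping1 was at 41.8 to 48.4 TPM in WT mTEC and 75.8 to 125 TPM in Aβ0/0 mTEC, with no overlap (log2 fold change -1.22, SE 0.33, adjusted p = 0.102), and DESeq2 called it (adjusted p = 0.0120).

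The leading members of mTEC did not pass between the genotypes. Serpinb1a overlapped, at 495 to 593 TPM in WT and 543 to 641 TPM in Aβ0/0 (log2 fold change -0.28, SE 0.18, adjusted p = 0.577). Serpina3g was at 249 to 275 TPM and 187 to 320 TPM (log2 fold change -0.05, SE 0.32, adjusted p = 0.974). Serpinb12 was at 86.8, 56.0 and 47.2 TPM in WT and 49.3, 5.97 and 12 TPM in Aβ0/0, which overlap by TPM and not by CPM (log2 fold change 1.52, SE 0.71, adjusted p = 0.385). Serpinb6a was spread in Aβ0/0 mTEC, at 384, 183 and 152 TPM, with replicate 1 highest. Other members were present in some Aβ0/0 mTEC libraries and absent from others. Serpina1e had 0, 380 and 0 counts there against 90, 120 and 107 in WT mTEC, and Serpinb3c had 0, 168 and 0 against 248, 242 and 225. Serpina10 had 188, 171 and 0 against 104, 220 and 199. Of the members over 3 counts in every WT mTEC library, 48 in all, 22 were not over 3 counts in every Aβ0/0 mTEC library, and the reverse held for 0. Over all genes, 5049 of 19235 (26.2%) were lost in this way, and the reverse held for 129 of 14315 (0.901%).

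Of the markers of other cells, 2 of 6 granulocyte markers and 2 of 8 markers of dendritic cells, macrophages and B cells tested were higher in WT than in Aβ0/0 mTEC, and none was lower. Over all genes tested the share higher in WT was 5.32%. Among markers over 3 counts in both groups, 1 of 5 and 0 of 6 were called higher in WT, against 0.597% of such genes. The other calls passed the filter through WT alone and had to differ. The 7 granulocyte markers summed to 545 to 699 CPM in WT mTEC and 78.3 to 297 CPM in Aβ0/0 mTEC, with Ngp and Elane at 0 in all Aβ0/0 mTEC libraries. The 8 markers of dendritic cells, macrophages and B cells, most of it Cd74, which TEC express too, summed to 16278 to 20938 CPM and 8371 to 17481 CPM, which overlap, with Itgax and Adgre1 at 0 in Aβ0/0 mTEC. Aire was at 443 to 1003 CPM in WT mTEC and 120 to 180 CPM in Aβ0/0 mTEC. Their part in the serpin values was not tested. In these bulk samples, fewer cells that express a gene and less RNA of it per cell cannot be told apart.

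Between WT and Aβ0/0 cTEC no member passed by edgeR, with 25 tested, and 0.0194% of all 15432 genes tested did. No member had an unadjusted p under 0.05 by edgeR, and DESeq2 called 0 with 2 at an unadjusted p under 0.05. The smallest p was that of Serpina3n, at 12.8, 4.88 and 14.0 TPM in WT cTEC and 4.42, 0.445 and 5.21 TPM in Aβ0/0 cTEC (log2 fold change 1.92, SE 0.90, adjusted p = 1.00). Serpinb8, a furin inhibitor, was at 19.2, 21.9 and 7.49 TPM in WT cTEC and 5.31, 4.81 and 8.37 TPM in Aβ0/0 cTEC, which overlap by TPM and not by CPM, and Serpinb10 at 18.1 to 23.1 TPM and 8.37 to 12.6 TPM, which do not overlap, while 4.35% of all genes tested were so placed and 7.85% did not overlap in either direction. Serpinf1 was at 320 to 513 TPM in WT cTEC and 470 to 590 TPM in Aβ0/0 cTEC. Serpinb6c overlapped too, at 38.3 to 55.2 TPM and 25.6 to 52.0 TPM.

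The genotype effect of no member differed between the subsets by edgeR, with 49 tested, and 0.0103% of all 19461 genes tested passed. Of the members, 5 of 49 had an unadjusted p under 0.05, as did 1343 of all 19461 genes. The smallest was that of Serping1, whose log2 fold change of WT over Aβ0/0 in mTEC less that in cTEC was -1.68 (SE 0.46, adjusted p = 0.390). Serping1 lay lower in WT than in Aβ0/0 mTEC and overlapped between the genotypes in cTEC, at 86.8 to 242 TPM and 83.7 to 143 TPM. DESeq2 called 2 members, Serpina1b and Serpina3c, which had 221 and 280 counts in WT cTEC replicate 3 and at most 1 in the other cTEC libraries.

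Genes that the serpins act on or beside were read from lists of such genes. Of the target proteases, 40 were tested between the WT subsets, and 18 passed toward mTEC and 3 toward cTEC (median log2 fold change 1.92, against 0.06 over all genes tested). Over the 33 that were over 3 counts in both subsets the median was 1.39, against -0.03 over such genes. For this list and those that follow, 18.0% of all genes tested were higher in WT mTEC and 8.81% in WT cTEC, 3.45% were higher in Aβ0/0 mTEC and 2.15% in Aβ0/0 cTEC, and 5.32% were higher in WT than in Aβ0/0 mTEC. Many genes of these lists entered through 1 group, and among those over 3 counts in both WT subsets, 11 of 33 target proteases, 11 of 32 other protease inhibitors, 12 of 19 cornification genes and 10 of 16 hepatocyte genes were higher in mTEC, against 11.1% of such genes. Cathepsin S (Ctss), which degrades the invariant chain in antigen presenting cells, was at 210, 226 and 199 CPM in WT mTEC and 13.5, 6.86 and 15.1 CPM in WT cTEC (log2 fold change 4.17, SE 0.34, adjusted p = 0.000354). Cathepsin H (Ctsh) was 3.50 higher (SE 0.34, adjusted p = 0.000608), and the skin kallikreins Klk5 and Klk14 had no more than 5 counts in a WT cTEC library. The pancreatic proteases Ctrb1 and Cela3b had no more than 1 count in a WT cTEC library and 13.3 to 19.9 CPM and 5.65 to 7.98 CPM in WT mTEC. In Aβ0/0 mice 5 target proteases of 24 tested were higher in mTEC, among them Ctss (log2 fold change 3.45, SE 0.45, adjusted p = 0.00767), and 1, cathepsin L (Ctsl), was higher in cTEC (log2 fold change -1.79, SE 0.40, adjusted p = 0.0446).

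Between WT and Aβ0/0 mTEC, 7 target proteases of 38 tested were higher in WT and 0 were higher in Aβ0/0. Trypsin (Prss1), Cela3b, Masp1 and Prtn3, the proteinase-3 that Serpinb1a inhibits, had no count in any Aβ0/0 mTEC library, while Prtn3 was at 1.96, 1.39 and 2.54 CPM and Prss1 at 6.96, 12.6 and 12 CPM in WT mTEC. The mast cell chymase Cma1 and cathepsin K (Ctsk) had at most 1 count in an Aβ0/0 mTEC library. Granzyme B (Gzmb), the target of Serpinb9, was named after its values were seen, with 296, 211 and 110 counts in WT mTEC and 0 in every Aβ0/0 mTEC library. All 7 had an adjusted p of 0.0352, and like the 5 serpins they passed the filter through WT alone. In cTEC 0 of 23 target proteases passed between the genotypes.

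Of the protease inhibitors outside the family, 44 were tested between the WT subsets, of which 23 passed toward mTEC and 2 toward cTEC (median log2 fold change 3.27). Over the 32 that were over 3 counts in both subsets the median was 1.32, against -0.03 over such genes. Slpi, the secreted inhibitor of elastase, was at 78.6, 79.8 and 63.6 CPM in WT mTEC and 3.83, 5.00 and 2.27 CPM in WT cTEC (log2 fold change 4.32, SE 0.35, adjusted p = 0.000347). Spink5, the inhibitor of skin kallikreins, was at 139, 145 and 102 CPM against 34.9, 26.2 and 20.7 CPM (log2 fold change 2.24, SE 0.27, adjusted p = 0.00138). Between WT and Aβ0/0 mTEC, 5 of 43 were higher in WT and 0 were higher in Aβ0/0, and these, Itih4, A2m, Spint3, Wfdc15b and Cst7, had no count in any Aβ0/0 mTEC library and so passed the filter through WT alone. In Aβ0/0 mice 7 of 29 were higher in mTEC and 1, Timp2, was higher in cTEC.

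Genes of the tissues in which many serpins are known moved between the subsets too. Of 25 cornification genes tested in WT, 18 were higher in mTEC, against 18.0% of all genes tested, and 0 were higher in cTEC, among them Calm4 (log2 fold change 10.18, SE 0.52, adjusted p = 9.45e-05) and filaggrin, Flg (log2 fold change 6.82, SE 0.69, adjusted p = 0.000715). Of 25 hepatocyte genes, 19 were higher in WT mTEC and 0 were lower, among them Apoa1 at 87.9, 66.8 and 69.2 CPM against 0.988, 3.08 and 2.12 CPM (log2 fold change 5.17, SE 0.45, adjusted p = 0.000436). Between WT and Aβ0/0 mTEC, 3 of 25 cornification genes and 4 of 25 hepatocyte genes were higher in WT, against 5.32% of all genes tested. All but Krt77 and Apoa2 of these passed the filter through WT alone, and 1 of 23 and 1 of 21 remained among the list genes over 3 counts in both groups, against 0.597% of such genes. Albumin (Alb) was at 5.08, 4.05 and 3.67 CPM in WT mTEC and had 0, 0 and 1 count in Aβ0/0 mTEC, and Apoa2 was at 28.8, 21.3 and 21.3 CPM against 1.69, 1.50 and 2.11 CPM (log2 fold change 3.73, SE 0.46, adjusted p = 0.0352).

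The promoters of members higher in mTEC and in cTEC were compared for short motifs. RefSeq windows (GRCm38.p6), from 250 bases before to 50 bases after a start, were found for 53 of the 63 members, and where a member had more than 1 window, that with the lowest start was used. TATAAA, searched on both strands, was in 10 of 20 promoters (50%) of members higher in WT mTEC, in 1 of 6 (16.7%) of those higher in WT cTEC and in 4 of 27 (14.8%) of the others, against 13.6% of all 32851 promoters. Within bases -50 to -15, a window chosen after the matches were seen, it was in 8 of the 20 (40%), in 0 of the 6 and in 1 of the 27 (3.70%), against 2.99% of all promoters. Neighbouring copies share promoter sequence, so that these windows are not independent. GGGCGG was in 2 of the 20 (10%), in 4 of the 6 (66.7%), in 1 of the 27 others (3.70%) and in 35.7% of all promoters. TGANTCA was in 3 of the 20, 2 of the 6, 6 of the 27 and 7.81% of all promoters. TTCNNNGAA was in 4 of the 20, 0 of the 6, 2 of the 27 and 8.30% of all, and the NF-kB consensus in 1 of the 20, 1 of the 6, 1 of the 27 and 4.51% of all. The 5 motifs were searched on both strands, and matches may overlap each other.

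The windows of 5 members with different levels are printed 5′ to 3′ in the sense of the gene, with matches to any of the 5 motifs in capitals. Serpinb3c and Serpina7 were higher in WT mTEC and hold TATAAA near the start. Serpina3g holds the NF-kB consensus and TTCNNNGAA. Serpinf1, the leading serpin of cTEC, holds none of the 5, and Serpine2, also higher in cTEC, holds GGGCGG at 6 positions.
Serpinb3c, chr1:107278322-107278621, minus strand: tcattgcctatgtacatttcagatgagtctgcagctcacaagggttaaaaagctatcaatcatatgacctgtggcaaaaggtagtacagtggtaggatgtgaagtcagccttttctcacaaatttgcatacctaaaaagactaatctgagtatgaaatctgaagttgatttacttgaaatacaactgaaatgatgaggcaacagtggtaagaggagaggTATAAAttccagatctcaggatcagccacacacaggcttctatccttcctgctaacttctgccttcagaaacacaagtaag
Serpina7, chrX:139085170-139085469, minus strand: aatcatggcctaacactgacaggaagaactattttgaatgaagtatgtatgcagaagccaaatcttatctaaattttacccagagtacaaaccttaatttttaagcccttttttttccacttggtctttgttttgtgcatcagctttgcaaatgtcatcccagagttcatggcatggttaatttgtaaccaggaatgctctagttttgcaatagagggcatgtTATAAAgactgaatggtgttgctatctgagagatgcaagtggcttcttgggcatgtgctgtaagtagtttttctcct
Serpina3g, chr12:104235897-104236196, plus strand: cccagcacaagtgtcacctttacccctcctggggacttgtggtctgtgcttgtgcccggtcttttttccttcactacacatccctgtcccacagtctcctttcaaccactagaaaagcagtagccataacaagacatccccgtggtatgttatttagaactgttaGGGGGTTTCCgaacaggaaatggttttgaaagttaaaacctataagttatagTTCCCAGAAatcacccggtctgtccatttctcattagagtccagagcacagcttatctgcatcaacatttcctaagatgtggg
Serpinf1, chr11:75422574-75422873, minus strand: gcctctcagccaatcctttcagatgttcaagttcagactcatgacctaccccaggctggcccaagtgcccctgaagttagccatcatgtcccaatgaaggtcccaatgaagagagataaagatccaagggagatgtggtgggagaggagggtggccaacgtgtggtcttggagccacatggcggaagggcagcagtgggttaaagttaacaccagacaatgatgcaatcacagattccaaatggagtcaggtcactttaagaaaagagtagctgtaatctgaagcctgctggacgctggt
Serpine2, chr1:79858616-79858915, minus strand: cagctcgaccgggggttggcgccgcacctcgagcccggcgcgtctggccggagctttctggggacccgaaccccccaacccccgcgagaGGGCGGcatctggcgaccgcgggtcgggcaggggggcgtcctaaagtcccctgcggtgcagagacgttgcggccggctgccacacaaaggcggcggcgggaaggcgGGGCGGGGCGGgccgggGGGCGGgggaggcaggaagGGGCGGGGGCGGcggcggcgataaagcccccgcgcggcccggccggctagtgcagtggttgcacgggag
The Serpine2 window had 41 CpG and 77.7% GC, and the Serpinf1 window had 3 CpG and 50.7% GC, so that members higher in cTEC differed widely among themselves. The median ratio of observed to expected CpG was 0.137 over the 20 promoters of members higher in WT mTEC, 0.371 over the 6 of those higher in WT cTEC, 0.176 over the 27 others and 0.384 over all promoters.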

How the data were processed

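Sorted cTEC and mTEC were sequenced from SMART-Seq v4 libraries. Per the labels, bcl2fastq 2.20.0, Trim Galore, kallisto 0.43, DESeq2 and mm10 were used. The authors deposited estimated counts and TPM per transcript, made with kallisto, and a table of log2 values (rlog), used here for symbols only. Counts were summed per gene over GENCODE M21 transcripts and rounded, and 0.450% to 0.512% of a library's counts had no matched transcript.

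The quasi-likelihood test of edgeR 4.0.16 (TMM, robust, filterByExpr) was fitted per comparison on 6 libraries and on 12 for the interaction, with Benjamini-Hochberg adjustment over all genes and a threshold of 0.05. The tests were tested on simulated data. DESeq2 1.42.0 (R 4.3.3), other filters, scalings and blocks, summed copies and left-out libraries were alternatives. CPM use TMM over 12 libraries. Bounds set a group to 3 counts per library. Detection limits cover counting error only. P-values measure the spread between pools. Copies were aligned with BLAST 2.17.0.

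The study lists cTEC and mTEC yields together for each numbered sorting, so equal numbers were taken to pair mTEC and cTEC of a genotype, though the labels do not state it. Deviations from the group means correlated at 0.219, 0.0381 and 0.0822 in WT and 0.240, 0.0912 and 0.0546 in Aβ0/0, and those of WT with Aβ0/0 libraries of a subset at -0.0391 to 0.245, so that the correlations alone do not show pairing. Members and lists were chosen with earlier results of these data known. Members were named when called, when at 10 TPM or more in a group, or when of smallest p where none was called, and list genes when called, up to 6 per list. The values of 1 member are not reported here, though it stays in all counts.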

Additional observations from a re-analysis of the deposited data

How the results depend on the processing

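The counts of members called between WT and Aβ0/0 mTEC (6) moved to 0 without the filter, with a mean of at least 10 counts, with all 12 libraries and with the replicate number as a block, to 10 with DESeq2 and to 1 with summed copies, and ranged from 0 to 11 over left-out libraries. The study lists WT and Aβ0/0 yields side by side under each replicate number, and whether the genotypes were sorted together is not stated. Between the WT subsets (32), all 12 libraries gave 18 and summed copies 20, with 21 to 41 over left-out libraries. Between the Aβ0/0 subsets (7), all 12 libraries gave 14, the replicate number as a block 4 and DESeq2 16, with 5 to 6 over left-out libraries. The interaction (0) gave 2 with DESeq2. Summing copies tests fewer genes. The cause of the other moves was not tested. RLE size factors, and Serpinc1 without the transcript that overlaps Zbtb37, kept each count within 1.5 times, and no called member changed direction in any alternative. Between WT and Aβ0/0 cTEC the count was 0 in all alternatives run, the block included. Depth limits the low members, since 3 counts or fewer cannot be told from none.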
